A study of Caenorhabditis elegans with 6 samples.

Results

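Described here are 9 genes of *Caenorhabditis elegans* around the retinoblastoma-related repressor *lin-35*, taken by their WormBase symbols from the 20392 genes of a count table. They are *lin-35*, the E2F and DP genes *efl-1* and *dpl-1*, the MuvB genes *lin-9*, *lin-37*, *lin-52*, *lin-53* and *lin-54*, and *lin-15B*. All 9 were in the table and passed the filter on low counts. Total RNA came from L1 larvae, 3 libraries of the strain N2 (wild type) and 3 of the strain XA6227 (*mrg-1* -/-). *mrg-1* encodes a chromodomain protein of chromatin. The mutant larvae were the progeny of 2000 to 4000 hand-picked homozygous adults without the balancer. The wild-type larvae came from as many adults rinsed off plates, so that hand-picking and genotype cannot be told apart. All larvae hatched in M9 buffer over 18 h and were then fed for 2 h and 30 min. The labels do not give the *mrg-1* allele, and each library is a pool of whole animals.

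LIN-35 belongs to the pocket protein family, whose members bind E2F-DP transcription factors and keep cell cycle genes off until a cell commits to S phase. In the DREAM complex LIN-35 joins EFL-1 and DPL-1 to the MuvB subunits, and the complex holds its target promoters silent. In worms the same genes are known as synMuv B genes: together with synMuv A genes they prevent extra vulval fates, and without them somatic cells of larvae switch on germline genes. LIN-15B is a synMuv B protein with a THAP-type zinc finger and is not a core subunit of the complex.

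The libraries held 19238422 to 39063186 counts. The mitochondrial share of the counts was 10.64%, 23.12% and 45.56% in wild-type libraries 1, 2 and 3 and at most 12.43% in the mutant. Across tested genes, Pearson's r of log2 CPM (read counts brought to a common library size with TMM factors) against the mutant libraries was 0.884 to 0.911 for wild-type library 1 and 0.816 to 0.852 for wild-type libraries 2 and 3. For the 9 genes and for the named genes that were called, log2 fold changes against wild-type library 1 alone are also given. The *mrg-1* transcript itself stood at 30.2, 15.9 and 18.8 CPM in wild type and at 2.11, 5.61 and 5.15 CPM in the mutant (edgeR log2 fold change -2.33, SE 0.53, adjusted p = 0.0413). Against wild-type library 1 alone its log2 fold change was -2.80. Its direction held in all 16 alternative fits and its call in 9. The call was lost under library totals, in limma on the deposited log2 values, without wild-type library 1 or 2, and without any 1 mutant library. Markers of the L1 stage (3 of 3 detected) summed to 398 to 460 CPM in wild type and 375 to 518 CPM in the mutant, while the 7 adult markers summed to at most 4.82 and 11.3 CPM. Of the L1 markers *lin-14* was higher without overlap, at 186 ± 24.5 and 247 ± 24.1 CPM (SD, n = 3 each), while *lin-28* and *hbl-1* had negative fitted values with overlap. Of 3 tested adult markers *vit-1* was higher without overlap, at 0.295 ± 0.065 and 3.64 ± 1.65 CPM (edgeR adjusted p = 0.0742), and 2 overlapped. DESeq2 and limma on the deposited log2 values each called 1 adult marker higher.

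*lin-35* (WBGene00003020) fell in the mutant, and no mutant library reached the lowest wild-type value. It lies on the plus strand of chromosome I, 5807709 to 5815637 in the WBcel235 build, with 10 exons after merging of isoforms; the positions of the other genes are in the same build. Its exons share 29 bases with *hmg-3* on the opposite strand, whose counts were fewer than those of *lin-35* in each library. Its level was 105, 107 and 112 CPM in wild-type libraries 1, 2 and 3, from 2193, 2916 and 3074 counts. In mutant libraries 1, 2 and 3 it was 32.3, 26.8 and 35.3 CPM, from 827, 651 and 940 counts. After TMM scaling the wild-type libraries were nearly level with each other and the mutant libraries spread a little more. A wide gap separated the groups. The TMM factors of wild-type libraries 1, 2 and 3 were 1.08, 0.942 and 0.702, so how level these libraries were depends on the scaling. The means were 108 ± 3.59 and 31.5 ± 4.28 CPM (SD, n = 3 each). The transcript fell 3.44-fold (edgeR log2 fold change -1.78, SE 0.29, 95% interval -2.42 to -1.14, adjusted p = 0.0139 in the quasi-likelihood test over 13460 genes). Of all tested genes, 3.51% had a more negative log2 fold change. At the TMM scaling 0.854% had a smaller SD of log2 CPM among the wild-type libraries.

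The size of the fall did not rest on the wild-type libraries that stood apart. Set against wild-type library 1 alone, *lin-35* had a log2 fold change of -1.73 (edgeR adjusted p = 0.0274, with the lone library assumed to vary like the mutant ones), and without library 1 it was -1.80 (adjusted p = 0.012). The call did rest on having 3 mutant libraries. Without mutant library 1, 2 or 3 the edgeR adjusted p was 0.103, 0.0935 or 0.073 at log2 fold changes of -1.79, -1.65 and -1.87. Those fits called 0, 3 and 4 genes lower in the mutant among all genes, against 114 with the 6 libraries. Scaled to library totals alone, the log2 fold change was -1.48 and the adjusted p 0.0551.

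**Figure D1:**
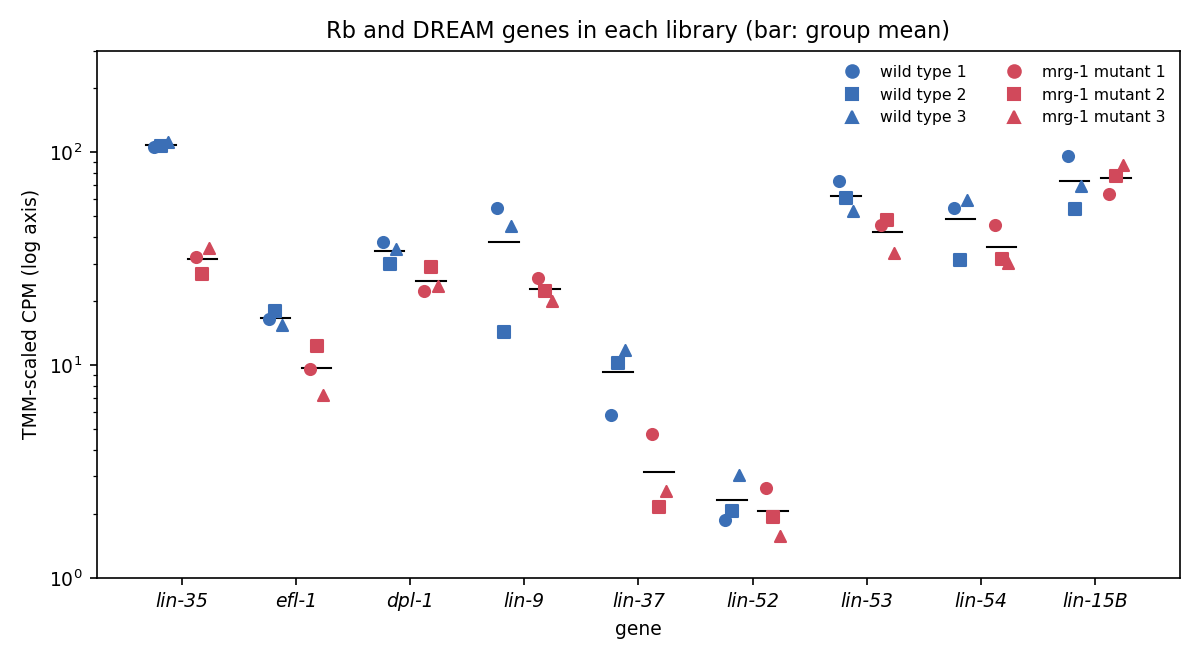
TMM-scaled CPM (log axis) of the 9 genes in each of the 6 libraries, with wild type in blue, the *mrg-1* mutant in red, a marker shape per library number and a bar at each group mean. *lin-35* stands at 105 to 112 CPM in wild type and 26.8 to 35.3 CPM in the mutant, and *lin-9* of wild-type library 2 lies below all mutant libraries.

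The sequence-specific partners of LIN-35 were lower in all 3 mutant libraries than in the 3 wild-type ones, by less than *lin-35*, and neither passed the test. *efl-1*, the gene of the E2F subunit, lies on the minus strand of chromosome V, 16958590 to 16965675. It stood at 16.5, 18 and 15.4 CPM in wild type and at 9.63, 12.2 and 7.25 CPM in the mutant. The groups did not overlap, but mutant library 2 came near the lowest wild-type library (edgeR log2 fold change -0.78, SE 0.44, 95% interval -1.73 to 0.17, adjusted p = 0.352). *dpl-1*, the DP subunit that pairs with EFL-1, lies on the plus strand of chromosome II, 9169910 to 9172565. Its level was 37.9, 30 and 34.9 CPM in wild type and 22.2, 28.9 and 23.5 CPM in the mutant. Mutant library 2 was almost level with wild-type library 2 (edgeR log2 fold change -0.46, SE 0.34, 95% interval -1.20 to 0.28, adjusted p = 0.487).

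Among the MuvB subunits *lin-37* had the most negative fitted value. LIN-37 is a small core subunit that in mammals is needed for repression by DREAM. It is read from the minus strand of chromosome III, 7070890 to 7072552, and stood at 5.81, 10.3 and 11.8 CPM in wild type and at 4.76, 2.14 and 2.55 CPM in the mutant, from 121, 280 and 322 and from 122, 52 and 68 counts. The groups did not overlap, although wild-type library 1 and mutant library 1 were close. The log2 fold change was -1.56 (SE 0.64, 95% interval -2.94 to -0.17, unadjusted p = 0.0305), which missed the threshold over all genes (edgeR adjusted p = 0.202). Against wild-type library 1 alone it was -0.87 (adjusted p = 0.6).

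*lin-53*, the RbAp48-type histone-binding subunit that DREAM shares with several other chromatin complexes, lies on the minus strand of chromosome I, 9618196 to 9619760. It stood at 73.1, 60.7 and 52.7 CPM in wild type and at 45.5, 48 and 33.7 CPM in the mutant. The mutant libraries all lay below wild type, mutant library 2 narrowly so (edgeR log2 fold change -0.55, SE 0.32, 95% interval -1.24 to 0.13, adjusted p = 0.358). Its paralogue *rba-1* starts 88 bases downstream on the same strand and was 25.2 ± 2.04 CPM in wild type and 22.3 ± 6.23 CPM in the mutant (SD, n = 3 each). The log2 fold change of *rba-1* was -0.18 (edgeR adjusted p = 0.836), and it turned positive under library totals, in the deposited log2 values and without mutant library 2. How the authors' counting treats reads that match both genes is not given in the sources used here, so both levels carry that uncertainty.

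*lin-54* and *lin-9* overlapped between the groups, and among the wild-type libraries both were lowest in library 2. *lin-54*, the subunit that in mammals reads the CHR promoter element through its cysteine-rich domain, lies on the plus strand of chromosome IV, 13241044 to 13243401. It stood at 54.7, 31 and 59.7 CPM in wild type and at 45.6, 31.5 and 30 CPM in the mutant (edgeR log2 fold change -0.44, SE 0.36, 95% interval -1.23 to 0.35, adjusted p = 0.535). *lin-9*, the scaffold subunit of MuvB, is on chromosome III (minus strand), 8900237 to 8904131. It stood at 54.7, 14.3 and 44.8 CPM in wild type and at 25.6, 22.4 and 20.1 CPM in the mutant. Wild-type library 2 was the lowest of the 6 for *lin-9*, and libraries 1 and 3 were the highest (edgeR log2 fold change -0.74, SE 0.46, 95% interval -1.74 to 0.26, adjusted p = 0.399). With wild-type library 2 left out, *lin-9* had a log2 fold change of -1.14 (adjusted p = 0.145) and with library 1 left out it had -0.38 (adjusted p = 0.648). Against library 1 alone it had -1.25 (edgeR adjusted p = 0.112).

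*lin-52* had the lowest level of the 9 genes in CPM. LIN-52 is the MuvB subunit that in mammals docks the pocket protein. Its locus is on chromosome III, minus strand, 9824083 to 9824750. It stood at 1.87, 2.05 and 3.03 CPM in wild type and at 2.65, 1.94 and 1.58 CPM in the mutant, from 39 to 83 counts per library. The groups overlapped, and the 95% interval of the log2 fold change, -1.99 to 1.64 around -0.17, was too wide to tell a fall from a rise (edgeR adjusted p = 0.932). The sign turned positive under library totals, in the deposited log2 values, without wild-type library 3 and against wild-type library 1 alone. Its exons share 50 bases with *arl-5* on the opposite strand, and the strand setting of the counting is not given in the sources used here.

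*lin-15B* was the only one of the 9 genes with a fitted value above 0, at a log2 fold change of 0.06 (SE 0.31, 95% interval -0.63 to 0.74, edgeR adjusted p = 0.941). It lies on the plus strand of the X chromosome, 15726123 to 15732025. It stood at 95.9, 54 and 69.5 CPM in wild type and at 63.8, 77.4 and 86.9 CPM in the mutant. The mutant libraries lay inside the wild-type range, and wild-type libraries 1 and 2 were the highest and the lowest of the 6. Its exons share 5 bases with the synMuv A gene *lin-15A* on the same strand. The sign turned negative without wild-type library 2, without mutant library 3 and against wild-type library 1 alone.

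Over the 9 genes, 1 fell and 0 rose in edgeR. The same test called 2.60% of the 13460 genes, 0.847% lower and 1.75% higher, and 1 gene is too few to compare with those shares. DESeq2, limma-voom and limma on the deposited log2 values also called *lin-35* and none of the other 8. At an unadjusted p under 0.05, 2 of the 9 were lower (*lin-35* and *lin-37*), against 10.2% of all genes. In 5 of the 9 all mutant libraries lay below all wild-type libraries, against 12.0% of all genes, and in 0 of the 9 above, against 14.4%. The median log2 fold change of the 9 was -0.55, against -0.03 over all tested genes, and ranged from -0.75 to -0.22 over the alternatives. Against wild-type library 1 alone the fitted values of the genes not yet given that way were -0.75 for *efl-1*, -0.59 for *dpl-1*, -0.77 for *lin-53*, -0.60 for *lin-54*, 0.15 for *lin-52* and -0.32 for *lin-15B*, none of them called. The genes were chosen with results of these data known, so these counts describe them and test nothing.

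**Figure D2:**
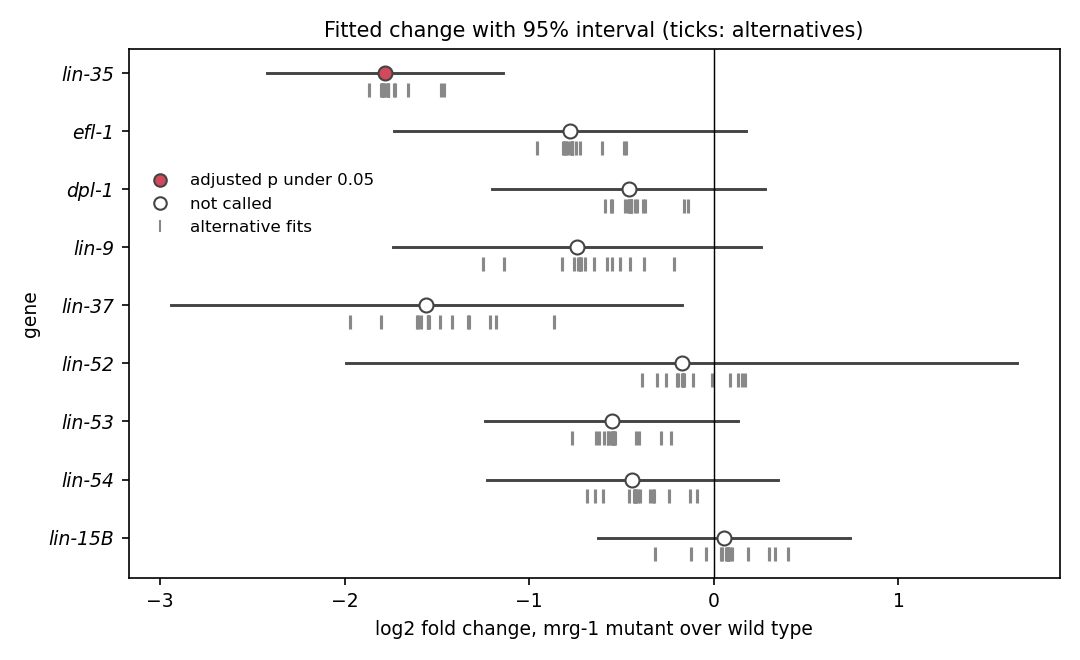
Fitted log2 fold change (mutant over wild type) of each gene with its 95% interval. A red point marks adjusted p under 0.05, an open point a gene that was not called, and grey ticks the 16 alternative fits. The interval of *lin-35* runs from -2.42 to -1.14 and those of the other genes except *lin-37* include 0.

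Markers of several tissues moved between the libraries too. As whole larvae were sequenced, fewer cells of a type and less RNA per cell cannot be told apart. The 2 body wall muscle markers summed to 1343 to 3419 CPM in wild type and 3518 to 4558 CPM in the mutant. The 5 germ cell markers summed to 550 to 756 and 281 to 357 CPM, most of it from the RNA helicase gene *cgh-1*, which fell from 640 ± 129 to 287 ± 46.3 CPM (SD, n = 3 each; edgeR log2 fold change -1.16, adjusted p = 0.0444). The *cgh-1* call was lost against wild-type library 1 alone (-0.76, edgeR adjusted p = 0.193), when wild-type library 2 or 3 was left out (0.112 and 0.0595), when any 1 mutant library was (0.165 to 0.22), under library totals (0.2) and in limma on the deposited values (0.141). Another germ cell marker, *mex-5*, went the other way without overlap, from 4.03 ± 2.16 to 11.9 ± 0.942 CPM (log2 fold change 1.56, edgeR adjusted p = 0.168). The 2 intestinal markers summed to 2.52 to 22.4 and 22.2 to 42.6 CPM and the 2 epidermal markers to 72.3 to 153 and 55.8 to 95.5 CPM. Of the epidermal pair, *nhr-23* was lower without overlap, at 44.8 ± 23.8 and 16.4 ± 3.89 CPM (log2 fold change -1.45, edgeR adjusted p = 0.0899), while *elt-3* overlapped. The 2 pharynx markers summed to 389 to 1697 and 1411 to 1774 CPM, the 2 neuronal markers to 260 to 292 and 243 to 416 CPM, and the 7 oocyte and eggshell markers to 16.5 to 25.4 and 10.7 to 23.8 CPM. Within the last list the eggshell gene *cpg-2* fell, from 7.06, 3.78 and 14.1 CPM in wild type to 0.195, 0 and 0.451 CPM in the mutant (edgeR log2 fold change -5.23, SE 1.14, adjusted p = 0.0373, called in 8 of 16 alternatives and not against wild-type library 1 alone, -4.98 with 0.0662). *cpg-1* was 7.04 ± 0.821 and 2.38 ± 1.02 CPM without overlap (edgeR adjusted p = 0.228), and *oma-2* was 3.21 ± 2.85 and 9.30 ± 6.21 CPM with overlap (edgeR adjusted p = 0.494). No marker was at 0 in all 6 libraries, and the part of these shifts in the values above was not tested. The muscle, intestine and pharynx sums were highest among the wild-type libraries in library 1.

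Per length of transcript, *lin-35* changed place among its partners. In RPKM (TMM-scaled CPM per kilobase of deposited gene length; mean ± SD, n = 3 each), *lin-53* led in wild type at 42.6 ± 7.04. *lin-35* came next at 33.6 ± 1.12 RPKM, ahead of *lin-54* at 31.6 ± 9.99. *lin-9* (16.5 ± 9.16), *lin-15B* (16 ± 4.62) and *dpl-1* (15.6 ± 1.82) formed a middle group. *efl-1* (11.9 ± 0.934), *lin-37* (9.68 ± 3.23) and *lin-52* (4.05 ± 1.09) were the lowest. Neighbours in this order overlapped except *lin-53* and *lin-35*, *dpl-1* and *efl-1*, and *lin-37* and *lin-52*. In the mutant *lin-35* was the sixth, at 9.79 ± 1.33 RPKM, after *lin-53* (29 ± 5.25), *lin-54* (23.3 ± 5.60), *lin-15B* (16.6 ± 2.53), *dpl-1* (11.3 ± 1.62) and *lin-9* (9.85 ± 1.22). It overlapped *lin-9* and *efl-1* (6.94 ± 1.79), its neighbours on either side, and *lin-52* (3.59 ± 0.956) and *lin-37* (3.29 ± 1.47) came last. By mean RPKM *lin-53* was the highest and *lin-37* and *lin-52* were the lowest of the 9 in both groups.

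The ratio of *lin-35* to each partner within a library does not depend on the scaling between libraries. The log2 of the *lin-35* level over the *lin-15B* level, per length, was 0.65, 1.498 and 1.20 in wild-type libraries 1 to 3 and -0.47, -1.02 and -0.79 in mutant libraries 1 to 3, so the more abundant of the pair differed between the groups. Over *lin-54* it was -0.12, 0.72 and -0.16 in wild type and -1.57, -1.30 and -0.83 in the mutant. Over *dpl-1* it was 0.93, 1.29 and 1.13 in wild type and -0.01, -0.66 and 0.04 in the mutant, where the transcripts were about level in libraries 1 and 3. Over *efl-1* it was 1.47, 1.37 and 1.66 in wild type and 0.54, -0.07 and 1.08 in the mutant.

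In 7 of the 8 ratios all mutant libraries lay below all wild-type libraries, with mean differences (mutant minus wild type) from -0.98 for *efl-1* to -1.87 for *lin-15B* on the log2 scale. All 8 ratios share *lin-35* as numerator, and the ratio of *lin-35* to 71.7% of all other tested genes separated the groups in the same way, so the count shows nothing particular to these partners. Each of these 7 had p = 0.1 in a two-sided exact permutation test, the smallest p that 3 against 3 libraries allow, and 0.114 after Benjamini-Hochberg adjustment over the 8 ratios. The exception was *lin-37*, where the log2 ratio was 2.43, 1.63 and 1.51 in wild type and 1.01, 1.90 and 2.04 in the mutant (mean difference -0.21, exact permutation p = 0.7, 0.7 after adjustment). As the genes were chosen with results of these data known, the permutation p values describe these ratios and test nothing.

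**Figure D3:**
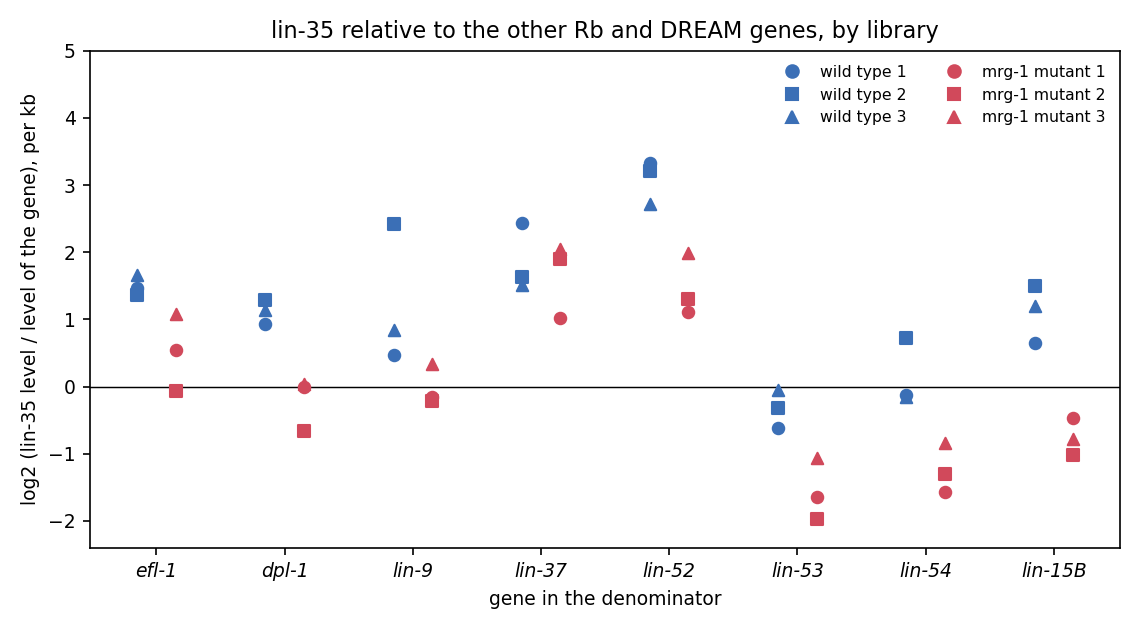
Log2 ratio of the *lin-35* level to the level of each other gene within a library, both per kilobase, with wild type in blue, the mutant in red and a marker shape per library number. The groups are apart for every gene on the axis except *lin-37*, whose ratios overlap between 1.51 and 2.04.

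The genes whose pattern over the 6 libraries was closest to that of *lin-35* were *exoc-7*, *F33A8.4*, *thoc-5*, *T13H5.8* and *spd-5*, by the Euclidean distance between centred log2 CPM among 7040 other genes of at least 10 CPM. Their distances were 0.335 to 0.504. *spd-5* encodes a scaffold of the pericentriolar material, *exoc-7* a subunit of the exocyst and *thoc-5* a subunit of the THO complex of mRNA export. *exoc-7* stood at 80.6, 91.1 and 99.5 CPM in wild type and 29.2, 28.2 and 32.4 CPM in the mutant. *thoc-5* stood at 54.4, 53.8 and 54 CPM in wild type and 13.8, 12.7 and 23.5 CPM in the mutant. The log2 fold changes of the 5 ran from -1.75 to -1.47, a direction fixed by choosing them for their likeness to *lin-35*. Against wild-type library 1 alone they were -1.41, -1.65, -1.69, -1.25 and -1.27, in the order named. Of the partner genes *lin-37* was the nearest to *lin-35*, at a distance of 1.08, and 2.87% of the 7040 genes were closer. With group means of 9.28 and 3.15 CPM *lin-37* itself lies below the limit of 10 CPM set for those genes.

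Genes around the group were taken from 8 lists of textbook genes, 77 tested genes in all, of which 2 fell and 0 rose in edgeR, against 0.847% and 1.75% of all genes. In the list of 19 S phase genes of the class that E2F factors control, 1 fell, the helicase subunit *mcm-7*. It stood at 194, 322 and 434 CPM in wild type and 121, 105 and 101 CPM in the mutant (edgeR log2 fold change -1.54, SE 0.32, adjusted p = 0.0299). The wild-type libraries of *mcm-7* were far apart and the mutant ones level, so that against wild-type library 1 alone its log2 fold change was -0.82 (adjusted p = 0.186). It no longer passed when wild-type library 2 was left out (edgeR adjusted p = 0.0795), when any 1 mutant library was (0.146 to 0.162), under library totals (0.081) or in limma on the deposited values (0.0539).

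All 19 S phase genes had a negative log2 fold change, against 51.3% of all genes, between -1.54 and -0.50 with a median of -0.90, against -0.03. The mutant libraries lay below wild type without overlap in 14 of them, against 12.0% of all genes, and 12 were lower at an unadjusted p under 0.05, against 10.2%. *mcm-3*, another helicase subunit, was 133 ± 5.20 CPM in wild type and 65.8 ± 9.62 CPM in the mutant (edgeR log2 fold change -1.01, SE 0.27, adjusted p = 0.0702). *dut-1*, the dUTPase, was 45.4 ± 23.6 and 18.8 ± 4.41 CPM (edgeR log2 fold change -1.27, SE 0.42, adjusted p = 0.122; SD, n = 3 each). Without wild-type library 2 *dut-1* had -0.76 (edgeR adjusted p = 0.335), and DESeq2 called it over the 6 libraries (adjusted p = 0.041). The median was -0.75 against wild-type library 1 alone, -0.55 under library totals, and DESeq2 called 4 of the 19 lower.

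**Figure D4:**
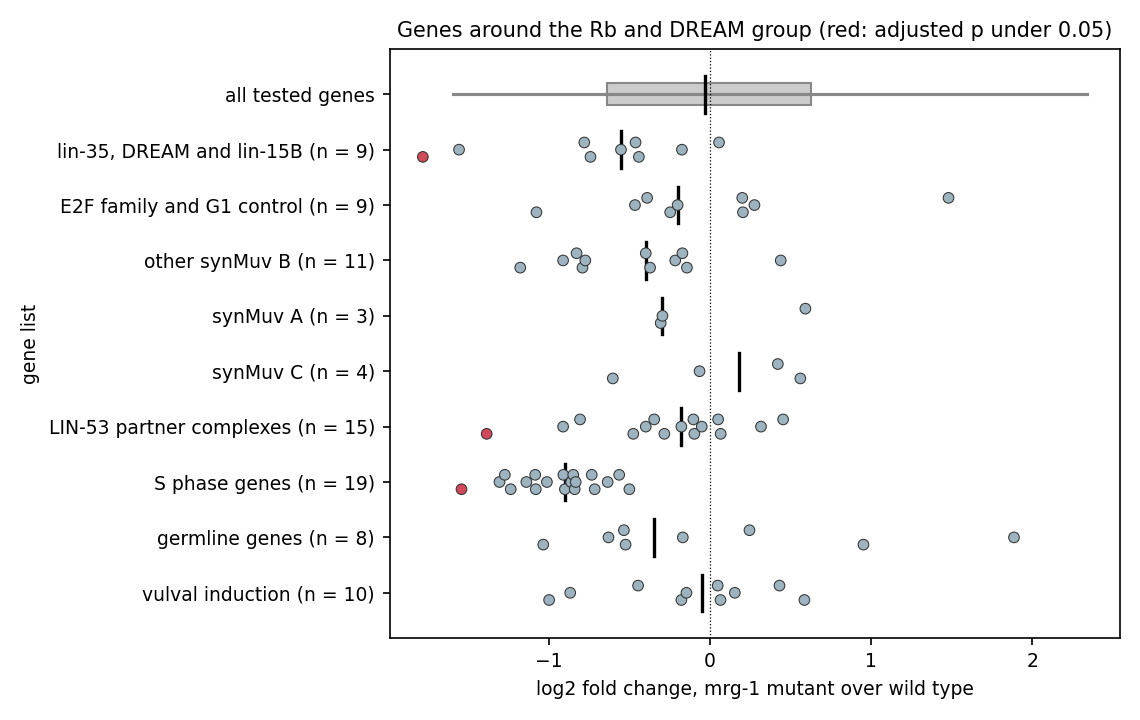
Log2 fold changes (mutant over wild type) of the tested genes of each list, 1 point per gene, with a black bar at the median and red points for adjusted p under 0.05. For all tested genes the grey box spans the quartiles, -0.64 to 0.63, and the line the percentiles 5 to 95, -1.60 to 2.34. The S phase genes all lie between -1.54 and -0.50.

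Of 15 tested genes in chromatin complexes that hold LIN-53, 1 fell, *hda-1*, the class I histone deacetylase of the NuRD and SIN3 complexes. It stood at 217, 411 and 391 CPM in wild type and 142, 113 and 135 CPM in the mutant (edgeR log2 fold change -1.39, SE 0.30, adjusted p = 0.0373). Wild-type library 1 was the lowest wild-type library, and against it alone the log2 fold change was -0.72 (adjusted p = 0.247). Without wild-type library 2 or 3 the adjusted p was 0.101 or 0.0514, and without a mutant library 0.163 to 0.182; library totals gave 0.125 and limma on the deposited values 0.0844. The median of the list was -0.18, against -0.03 over all genes, and 0.12 under library totals, where all genes had 0.272. *isw-1*, an ISWI-type remodeller, overlapped between the groups (edgeR log2 fold change -0.81, SE 0.40, adjusted p = 0.29).

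Of 11 further synMuv B genes 0 were called in edgeR, DESeq2, limma-voom or limma on the deposited values, and 5 were lower at an unadjusted p under 0.05, against 10.2% of all genes. Their median log2 fold change was -0.40, against -0.03 over all genes, and -0.11 under library totals and -0.06 in the deposited values, where all genes had 0.272 and 0.348. The lowest p belonged to *mep-1*, a zinc finger partner of the NuRD-type remodeller LET-418, at 442 ± 168 CPM in wild type and 235.2 ± 19.8 CPM in the mutant (edgeR adjusted p = 0.117). The SUMO-conjugating enzyme gene *ubc-9* had 251 ± 75.3 and 141 ± 12.7 CPM (adjusted p = 0.133). *lin-61*, an MBT-repeat protein that binds methylated histone H3, had 38.2 ± 16.4 and 16.9 ± 4.39 CPM (adjusted p = 0.141; SD, n = 3 each). In these 3 genes all mutant libraries lay below wild type. Over the list that held for 4 of the 11, against 12.0% of all genes. In 1 of the 11 all mutant libraries lay above wild type, against 14.4%.

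The E2F relatives and the G1 regulators that act on pocket proteins were split, 5 of 9 with a negative log2 fold change. Of the 9, 0 were called in edgeR, DESeq2 or limma, 0 had an unadjusted p under 0.05, and the groups overlapped in all 9. The cyclin E gene *cye-1* stood at 20.8, 30.7 and 29.6 CPM in wild type and 24.1, 6.10 and 8.22 CPM in the mutant, with mutant library 1 inside the wild-type range (edgeR log2 fold change -1.08, SE 0.52, adjusted p = 0.277). Without mutant library 1 it had -1.90 (edgeR adjusted p = 0.178). The CDK inhibitor gene *cki-1* had a log2 fold change of 1.48 (SE 0.84, edgeR adjusted p = 0.353). *efl-3*, an E2F relative, had -0.39 (SE 0.35, edgeR adjusted p = 0.573), a sign that flipped under library totals, in the deposited log2 values, without wild-type library 3 and against wild-type library 1 alone.

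In the 3 synMuv A genes tested, which act in parallel to the *lin-35* group, and the 4 synMuv C genes of a Tip60-type acetyltransferase complex, 0 were called in edgeR, DESeq2 or limma and 0 had an unadjusted p under 0.05. Their median log2 fold changes were -0.29 and 0.18, with signs that changed over the alternatives (-0.74 to 0.21 and -0.18 to 0.53). *ssl-1*, the Swi2/Snf2-type ATPase of the synMuv C class, was 279 ± 85.9 CPM in wild type and 412 ± 13.7 CPM in the mutant, with no overlap of the groups (SD, n = 3 each; edgeR adjusted p = 0.287). Of 8 germline genes that synMuv B proteins keep off in somatic cells, 0 were called in edgeR, DESeq2 or limma. The median of these 8 was -0.35, and 0.38 in the deposited log2 values, where all genes had 0.348. The meiotic axis gene *htp-3* was the only one with an unadjusted p under 0.05, at 2.35, 0.843 and 1.10 CPM in wild type and 9.36, 3.79 and 2.70 CPM in the mutant (edgeR log2 fold change 1.89, SE 0.85, adjusted p = 0.244). Of 10 vulval induction genes 0 were called in edgeR, DESeq2 or limma. The median of these 10 was -0.05, and 0.22 under library totals, where all genes had 0.272. Their lowest p was that of the Ras gene *let-60*, at 260, 810 and 958 CPM in wild type and 417.5, 282 and 316 CPM in the mutant (edgeR log2 fold change -0.998, adjusted p = 0.194). It was -1.38 with an adjusted p of 0.0184 without wild-type library 1 and 0.40 against that library alone.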

How the data were processed

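The authors deposited raw counts per gene with a gene length, and normalized log2 values. By comparison with the counts, each deposited log2 value is the log2 of the count scaled to a library total of 24838462, plus 8. The submitters' processing notes name ce10 as the genome. Which aligner, counter, annotation and strand setting were used is not given in the sources used here. Libraries were made from 2 ng of total RNA per the labels' protocols. Symbols came from a table of WormBase identifiers and positions from Ensembl release 115 on WBcel235, looked up by identifier without conversion. All 9 identifiers matched, and the deposited length differed from the annotated exon length by at most 40 bases. 

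The quasi-likelihood test was that of edgeR 4.0.16 under R 4.3.3, run on the deposited counts (TMM, default expression filter, group as the only term, Benjamini-Hochberg 0.05 over 13460 genes). Standard errors and 95% intervals are those implied by the F statistic. log2 CPM used a prior count of 2. Alternatives were RLE scaling, library totals, other filters, DESeq2 1.42.0, limma 3.58.1 (voom, and on the deposited log2 values), a replicate block, mitochondrial genes left out, each library left out, and wild-type library 1 alone. Ratios were put through an exact permutation test, which is descriptive only for genes chosen with results known. With counts scaled by totals alone, replicates differed by far more than sampling noise (chi-square per gene of 75.2 or more in each pair). That statistic includes differences in composition between libraries and does not measure the spread after TMM scaling. The genes and lists were chosen with earlier results of these data known. Named are the 9 genes, *mrg-1*, the 5 genes most like *lin-35*, all called list genes, marker lists included, with up to 3 others per list by the smallest p, and genes that overlap a member. Of the listed genes, *lin-56* and *cdc-45* were not analysed here. Gene neighbours such as *rba-1* and *ZK418.5* were added after their values were seen.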

Additional observations from a re-analysis of the deposited data

How the results depend on the processing

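*lin-35* kept its direction in all 16 alternatives (log2 fold change -1.87 to -1.46, adjusted p 2.1e-06 to 0.103) and its call in 12 of them. It was lost under library totals and without each mutant library. None of the other 8 genes was called in any alternative. Thus the number of the 9 genes called was 0 under library totals and 0 to 1 with a library left out. Over all genes 350 calls became 215 under library totals, 734 without a filter, 1330 in DESeq2 and 35 to 1043 with a library left out (35, 67 and 44 without mutant library 1, 2 or 3, 82 without wild-type library 2 and 1043 without wild-type library 1). The 2 calls among the pathway lists became 0 under library totals, in the deposited log2 values and against wild-type library 1 alone, 5 in DESeq2 and 0 to 5 with a library left out. Deviations of same-numbered libraries from their group means correlated at -0.005, 0.043 and 0.093, so the numbers were not taken as pairs. With the replicate block 431 genes were called, *lin-35* among them (log2 fold change -1.79, adjusted p = 0.009), and no call among the 9 genes changed. Library totals and the deposited log2 values moved the median log2 fold change of all genes from -0.03 to 0.272 and 0.348. Relative to that median *lin-35* stood at -1.75 and -1.81, against -1.75 in the TMM-scaled fit.

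Signs reversed for genes that were not called. *lin-52* was 0.17 under library totals, 0.13 in the deposited log2 values, 0.15 against wild-type library 1 alone and -0.39 to 0.086 with a library left out. *lin-15B* was -0.32 against wild-type library 1 alone and -0.13 to 0.30 with a library left out. *efl-3* was 0.0027, 0.025 and 0.081 under library totals, in the deposited values and against wild-type library 1 alone, and -0.58 to 0.089 with a library left out. *rba-1* was 0.12 and 0.10 under library totals and in the deposited values, and -0.35 to 0.054 with a library left out. *let-60* was 0.40 against wild-type library 1 alone. The median over all genes was 0.272 under library totals and 0.348 in the deposited values, against -0.03 in the TMM-scaled fit. In each of these settings *lin-52*, *efl-3* and *rba-1* lay below that median. The cause of the reversals was not tested. Depth limits *lin-52*, with 39 to 83 counts per library, and *lin-37*, with 52 to 322.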

Other observations

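Genes that touch or adjoin the group on the chromosome had their own values. *hmg-3*, which encodes an HMG-box protein related to a subunit of the histone chaperone FACT, shares 29 exon bases with *lin-35* on the opposite strand. It was 37.7 ± 6.54 CPM in wild type and 14.8 ± 4.42 CPM in the mutant (SD, n = 3 each), with no overlap of the groups, a log2 fold change of -1.35 (SE 0.38) and an edgeR adjusted p of 0.0804 (0.0146 in DESeq2). The counts of *hmg-3* were 697, 935 and 1238 in wild type and 381, 250 and 510 in the mutant. *ZK418.5*, which ends 60 bases upstream of *lin-37* on the same strand, was 125 ± 17.3 and 74.3 ± 7.89 CPM (edgeR log2 fold change -0.75, SE 0.28, adjusted p = 0.16), again with no overlap. *lin-15A*, a synMuv A gene that shares 5 exon bases with *lin-15B* on the same strand, was 16.4 ± 5.04 and 24.7 ± 8.12 CPM (edgeR log2 fold change 0.59, SE 0.42, adjusted p = 0.47), with overlapping groups. *arl-5*, across from *lin-52*, was 9.57 ± 3.55 and 4.68 ± 2.04 CPM (edgeR log2 fold change -1.03, SE 0.60, adjusted p = 0.369). *C32F10.4*, which lies across *lin-35* with 0 shared exon bases, was 10.4 ± 5.94 and 11.6 ± 2.25 CPM (edgeR log2 fold change 0.17, adjusted p = 0.893). *T23G7.2*, across *dpl-1* with 0 shared exon bases, was 6.96 ± 3.89 and 6.69 ± 2.22 CPM (edgeR log2 fold change -0.06, adjusted p = 0.972). *ZK632.9*, upstream of *lin-52*, was 50.8 ± 23.9 and 79.6 ± 26.6 CPM (edgeR log2 fold change 0.65, adjusted p = 0.386). Downstream of *lin-54*, *JC8.4* was 1.33 ± 0.865 and 2.16 ± 2.34 CPM (edgeR log2 fold change 0.71, adjusted p = 0.761), and *cox-11* was 10.6 ± 2.74 and 4.11 ± 3.27 CPM without overlap (edgeR log2 fold change -1.37, adjusted p = 0.275). The annotation used here does not name operons, so whether any of these pairs is transcribed together was not tested.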
